A study of Mus musculus with 6 samples.

Results

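Open chromatin was described at 39 genes of the lysosome, among them the cathepsins, other acid hydrolases, membrane proteins and subunits of the proton pump, out of 21887 protein-coding genes. The 39 were chosen by name for their known function and not by a measured value, though with earlier results of these data known. A gene's window was its body extended by 10 kb on each side, and every deposited peak that overlapped the window counted for that gene. The data are ATAC-seq peak lists of mouse blood monocytes, an assay that marks accessible DNA by where the Tn5 transposase can insert adapters. The DTR group holds 3 libraries of monocytes from PF4cre-iDTR mice given diphtheria toxin, and the WT group 3 libraries of monocytes from wild-type mice given the same toxin, so the toxin is common to both groups. The series calls the DTR mice thrombocytopenic, that is, low in platelets, and compares monocytes in and out of that state. In PF4cre-iDTR mice a Cre recombinase under the platelet factor 4 promoter, active mainly in megakaryocytes, switches on a receptor that makes cells sensitive to the toxin. Mice labelled WT lack both, so Cre, receptor and the loss of the cells that carry them cannot be told apart. Neither age nor sex of the mice is given in the labels, nor whether a library came from 1 animal or a pool. All p-values therefore measure only the spread between these libraries, which may be technical.

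Lysosomes are acidic compartments in which cells degrade material taken up from outside and worn parts of their own. The vacuolar ATPase, built from a membrane-bound V0 sector and a cytosolic V1 sector, pumps protons into them, and the acid pH activates cathepsins, glycosidases and lipases. Monocytes and the macrophages they give rise to are rich in lysosomes, and the transcription factors TFEB and MITF are known to activate many lysosomal genes through an extended E-box with the core TCACGTG.

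The 6 lists held 84029, 81567 and 81579 peaks in the DTR libraries, against 78162, 77867 and 80475 peaks in the WT libraries. The peaks spanned 49.4 ± 1.14 Mb per DTR library and 46.0 ± 1.95 Mb per WT library (SD, n = 3 each). No read counts were used here, so the depth of a library is unknown and the absence of a peak may reflect low coverage as well as closed chromatin. Not all marker genes searched had a start in the RefSeq table used here, and the counts at starts cover only those that did. Of these, 3 of 3 classical and 5 of 5 non-classical monocyte genes had a peak over a start in all 6 libraries. The same held for 2 of 3 macrophage, 1 of 6 neutrophil, 0 of 2 B cell, 1 of 5 T and NK cell, 1 of 6 megakaryocyte and platelet, and 0 of 4 erythroid genes. By window, which takes in 10 kb on each side, the types differed less. The window held a peak in all 6 libraries at 7 of 7 classical and 6 of 6 non-classical monocyte genes, and at 5 of 6 macrophage, 5 of 6 neutrophil, 4 of 4 B cell, 2 of 5 T and NK cell, 6 of 6 megakaryocyte and platelet, and 4 of 5 erythroid genes. In a bulk sample, fewer cells of a type and less signal per cell cannot be told apart.

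Promoters of members held the extended E-box more often than promoters at large (a description, not tested). In 8 of them the motif lay under a peak in all 6 libraries. Those of Gaa and Glb1 are left out, and the other 6 are printed here. Each is the RefSeq stretch of 250 bases before to 50 after an annotated start (GRCm38.p6), read in the gene's direction, with TCACGTG or its reverse complement CACGTGA in capitals. Ctsd, the aspartic protease cathepsin D, lies at chr7:142387778-142388077 on the minus strand, and Ctsa, the protective protein and carboxypeptidase cathepsin A, at chr2:164833523-164833822 on the plus strand. Lamp1, a heavily glycosylated protein of the lysosomal membrane, lies at chr8:13158911-13159210 on the plus strand. Of the proton pump, Atp6v0b lies at chr4:117887280-117887579, Atp6v0d1 at chr8:105566015-105566314 and Atp6v1a, the catalytic subunit A, at chr16:44139210-44139509, all on the minus strand.
Ctsd: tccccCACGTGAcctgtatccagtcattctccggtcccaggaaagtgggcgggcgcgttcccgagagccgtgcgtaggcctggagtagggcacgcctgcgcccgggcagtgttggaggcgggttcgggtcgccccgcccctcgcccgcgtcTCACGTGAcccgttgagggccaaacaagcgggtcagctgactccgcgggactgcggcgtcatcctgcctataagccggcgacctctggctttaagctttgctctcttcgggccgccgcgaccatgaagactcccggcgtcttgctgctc
Ctsa: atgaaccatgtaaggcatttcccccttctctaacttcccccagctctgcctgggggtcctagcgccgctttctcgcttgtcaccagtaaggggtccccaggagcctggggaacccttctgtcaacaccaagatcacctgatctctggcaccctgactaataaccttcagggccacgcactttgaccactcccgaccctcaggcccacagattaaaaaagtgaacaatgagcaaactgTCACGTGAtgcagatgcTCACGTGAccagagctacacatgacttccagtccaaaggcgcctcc
Lamp1: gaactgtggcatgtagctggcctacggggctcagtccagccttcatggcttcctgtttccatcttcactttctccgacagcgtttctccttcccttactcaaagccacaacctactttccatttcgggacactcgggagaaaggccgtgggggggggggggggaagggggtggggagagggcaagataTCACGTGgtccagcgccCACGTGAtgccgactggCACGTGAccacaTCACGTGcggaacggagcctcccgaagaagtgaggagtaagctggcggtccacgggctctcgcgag
Atp6v0b: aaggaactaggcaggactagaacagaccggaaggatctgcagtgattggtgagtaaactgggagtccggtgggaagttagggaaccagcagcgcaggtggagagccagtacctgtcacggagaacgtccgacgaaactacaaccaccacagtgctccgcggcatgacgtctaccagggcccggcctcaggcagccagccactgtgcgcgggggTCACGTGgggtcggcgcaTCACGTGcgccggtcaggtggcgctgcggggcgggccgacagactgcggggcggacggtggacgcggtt
Atp6v0d1: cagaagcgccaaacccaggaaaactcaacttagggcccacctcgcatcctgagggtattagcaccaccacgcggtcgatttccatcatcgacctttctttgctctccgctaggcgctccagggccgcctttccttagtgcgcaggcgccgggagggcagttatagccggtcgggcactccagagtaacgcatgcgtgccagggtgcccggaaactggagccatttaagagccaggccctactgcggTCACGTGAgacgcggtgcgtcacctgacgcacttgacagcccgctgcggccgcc
Atp6v1a: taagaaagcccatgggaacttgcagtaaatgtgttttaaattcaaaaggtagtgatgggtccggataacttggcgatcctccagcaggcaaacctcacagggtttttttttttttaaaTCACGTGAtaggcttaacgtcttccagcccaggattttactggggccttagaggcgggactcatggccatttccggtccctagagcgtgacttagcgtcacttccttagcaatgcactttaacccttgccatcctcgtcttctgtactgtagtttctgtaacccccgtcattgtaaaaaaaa

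TCACGTG, searched on both strands, was found at 9 of the 40 member starts in the RefSeq table (22.5%), against 4.39% of all 21263 starts and 6.25% of the 11448 starts with a peak in all 6 libraries. The 9 starts belonged to Atp6v0b, Atp6v0d1, Atp6v1a, Ctsa, Ctsd, Gaa, Glb1, Lamp1 and Lgmn, of 31 member genes with a start in the table. Its core CACGTG, which TCACGTG contains, was found at 11 of 40 (27.5%), against 7.84% of all starts, the 2 further genes being Ctsf and Ctsl. Lamp1 carried 4 such cores, Ctsa, Ctsd and Atp6v0b 2 each, and Atp6v0d1 and Atp6v1a 1 each. The GC box GGGCGG stood at 62.5% of member starts and 46.2% of all starts, the CCAAT box (CCAAT) at 27.5% and 38.2%, and GAGGAAG, a sequence like the binding site of the myeloid factor PU.1, at 17.5% and 13.6%. Each motif was counted on both strands. These are matches of letters in a fixed window and say nothing of binding.

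Most of these starts were open in both groups, a start counting as open where a peak overlapped any of its 300 bases. By that rule 36 of 40 member starts were open in all 6 libraries, against 53.8% of all starts, and 30 of 31 member genes had at least 1 such start, against 55.8% of all genes. The start base itself lay under a peak in all 6 libraries at 33 of 40 member starts, against 51.6% of all starts. Of the open starts, those of Atp6v0a1, 1 of Atp6v0c and 1 of Lgmn had their start base under a peak in 0 libraries, and at that Lgmn start the TCACGTG also lay outside the peaks. At the other 8 starts with TCACGTG, every copy lay wholly under a peak in all 6 libraries. The gene with no start open in all 6 was Ctsk, the collagen-degrading cathepsin K known from osteoclasts, open in DTR library 3 and WT library 1 alone. Of the genes with several starts, 2 starts of Mitf and 1 of Tfeb had a peak in 0 libraries, while another start of each gene was open in all 6. Where the start was open, the fold of the peak at it, the authors' ratio to the background their caller estimated, averaged 3.11 to 9.90 per start. The median of these averages was 5.35, lower than the 7.29 over all starts open in all 6 libraries.

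No difference at a start passed the test. At Lamp1 the fold at the start was 5.10, 4.90 and 5.24 in DTR libraries, against 5.42, 5.37 and 5.09 in WT libraries, so the groups overlapped. At Atp6v1a it was 4.61, 4.57 and 4.70 in DTR, against 4.69, 4.65 and 4.83 in WT libraries. At Ctsd it was 4.64, 5.47 and 4.88 in DTR, against 4.74, 4.94 and 5.26 in WT libraries. All 3 differences lay between −0.05 and 0.02 on the log2 scale. At Ctsf, a cysteine cathepsin, the fold was 5.19, 5.09 and 4.54 in DTR, below 5.81, 5.80 and 5.73 in WT libraries, and the groups did not overlap (log2 difference −0.21, adjusted p 0.433, limma over 11448 starts). Over the whole Ctsf window the highest fold went the other way, with overlap (log2 difference 0.16, adjusted p 0.640 in limma). It was 7.25, 6.27 and 6.96 in DTR and 5.81, 6.72 and 5.73 in WT libraries. At the start of Ctsc, cathepsin C, the activator of granule proteases, the fold was 6.33, 6.19 and 6.22 in DTR and 6.71, 6.89 and 7.004 in WT libraries, without overlap (−0.12, adjusted p 0.433). Atp6v0d1 had 5.03, 5.02 and 4.995 in DTR, just below 5.16, 5.07 and 5.29 in WT libraries (−0.03, adjusted p 0.812), and the peak shared by 3 starts of Atp6v0c had 3.83, 3.68 and 3.83 in DTR, below 3.87, 3.92 and 4.27 in WT libraries (−0.07, adjusted p 0.666). Ctsf, Ctsc and Lipa, the lysosomal acid lipase, were the 3 members with an unadjusted p under 0.05 here, and Ctsf and Lipa were singled out after their values were seen. Lipa had 6.53, 6.59 and 6.72 in DTR, above 6.37, 5.95 and 6.27 in WT libraries (0.11, adjusted p 0.611). In all, 6 of 36 member starts, 3 of them under that 1 Atp6v0c peak, were below in every DTR library, against 5.58% of all open starts, and 1 was above, against 5.81%. None of the 36 starts passed an adjusted p of 0.05, and neither did any of the 11448 (0 higher, 0.00%, and 0 lower, 0.00%), of which 881 had an unadjusted p under 0.05 (4.48% of all higher and 3.21% lower). The median log2 difference was −0.008 over the 9 starts with TCACGTG and −0.016 over the 27 without.

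**Figure D1:**
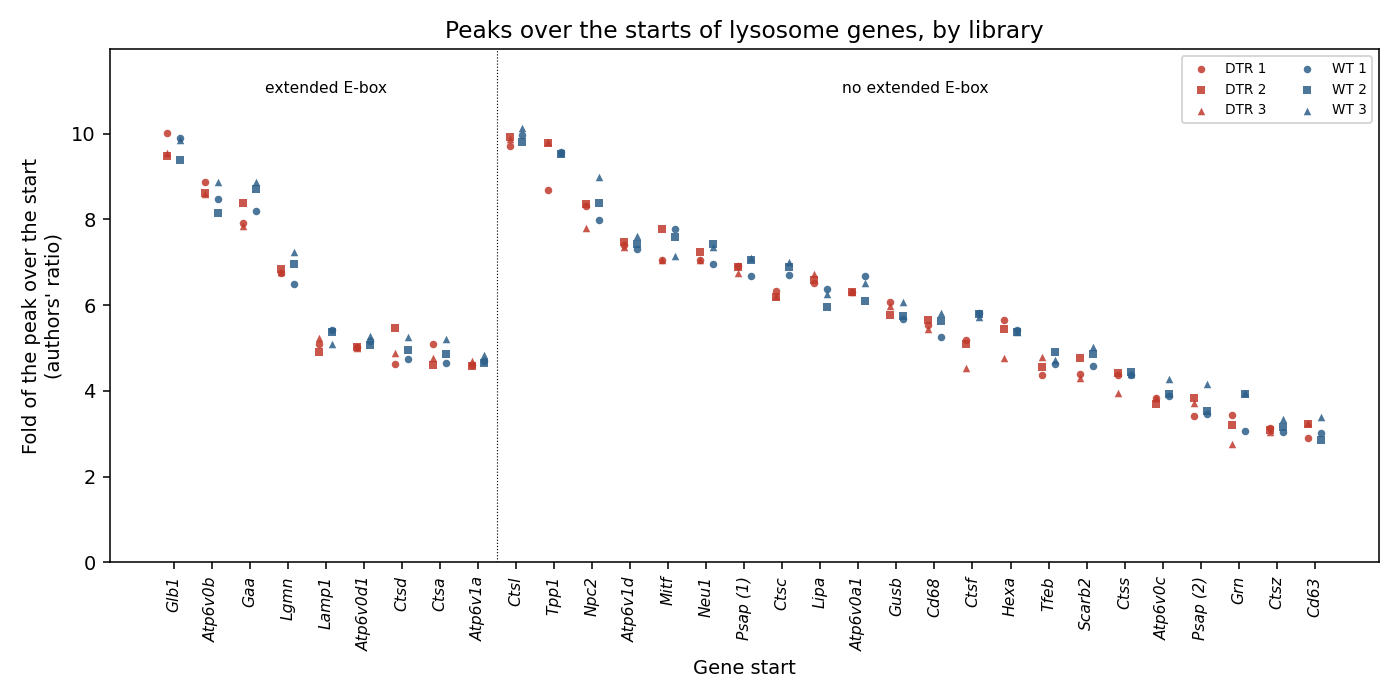
Fold of the peak overlapping the 300 bases around each open member start (y axis, the authors' ratio), by gene (x axis), with DTR libraries in red left of WT libraries in blue, and starts under the same peak drawn once. The 9 genes with TCACGTG stand to the left of the dotted line. Their start averages (4.68 to 9.69) lie within the range of the other starts (3.11 to 9.90), which reaches lower. The libraries of both groups lie close together.

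Over the whole windows, the proteases of the list, that is, the cathepsins, legumain and Tpp1, were the group with most members, 13. All 13 had peaks in all 6 libraries, as had all 39 members, against 74.2% of all genes. Their peaks summed to 73, 71 and 70 in DTR libraries and 71, 68 and 71 in WT libraries. Their covered length summed to 51.5, 48.1 and 50.4 kb in DTR and 49.1, 41.6 and 46.5 kb in WT libraries, and for both sums the groups overlapped. Lgmn, legumain, an asparaginyl endopeptidase that processes cathepsins, had the most peaks, 12, 12 and 11 in DTR and 13, 11 and 11 in WT libraries. Ctsz, cathepsin Z, had the fewest, 1 in each DTR library and 1, 2 and 1 in WT libraries, where a single wide region over its start was split in WT library 2.

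Ctsk was the only member with more peaks in every DTR than in every WT library. It had 7, 8 and 7 peaks in DTR and 6, 6 and 6 in WT libraries (exact two-sided permutation p 0.1, the smallest that 3 against 3 can give). Of genes with a peak in any library, 2.99% stood apart this way and 0.345% the other way, and 0 of the 39 members had fewer peaks in every DTR library. The Ctsk window overlaps that of its neighbour Ctss, and 2 regions counted for both. Covered length at Ctsk was 2248, 2363 and 3163 bp in DTR and 2842, 2326 and 1950 bp in WT libraries, which overlapped. When the lists were cut to equal length, or to a q of at most 1e-05, 0 members stood apart by number. Without DTR library 1 there were 2 members with more peaks (Ctsk and Mitf), and without DTR library 3 there were 3 (Ctsk, Grn and Atp6v1b2).

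Covered length stood apart at 5 of 39 members, all with more in DTR, against 19.3% of genes in that direction, and at 0 members with less, against 0.85%. Ctss, cathepsin S, the protease that trims the invariant chain of MHC class II, had 3538, 3651 and 3647 bp in DTR libraries, above 3460, 3493 and 3464 bp in WT libraries. Ctsz had 3963, 3992 and 4010 bp in DTR, above 3953, 3257 and 3941 bp in WT libraries, a gap of 10 bp between the nearest libraries. The others were Hexa, Tfeb and Atp6v0a1, described with their groups. All lists covered more in DTR libraries, and once each library was centred on its median over all genes, the log2 difference was −0.03 at Ctss (adjusted p 0.851) and 0.02 at Ctsz (adjusted p 0.935).

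By fold, Ctsc was the only member with a lower highest fold in every DTR library. Its highest fold was 7.56, 7.65 and 7.65 in DTR, against 8.12, 10.1 and 8.17 in WT libraries, where library 2 was the highest. These folds belong to a region in the flank upstream of Ctsc. In that region peaks covered 1281, 1257 and 1305 bp in DTR and 1297, 623 and 1274 bp in WT libraries. WT library 2 thus had the highest fold and the shortest covered length, and whether its fold depended on that length was not tested. The log2 difference in highest fold was −0.20, with a 95% interval of −0.42 to 0.01 and an adjusted p of 0.571. In that direction 4.75% of genes with a peak in all libraries stood apart. Ctsc also had the lowest adjusted p of any member for covered length, 0.652, with 6953, 5237 and 6550 bp in DTR and 5732, 3750 and 4592 bp in WT libraries, which overlapped (log2 difference 0.33). Ctsb, cathepsin B, had 6830, 5778 and 6095 bp in DTR and 5925, 5250 and 6023 bp in WT libraries. Ctsd had 3087, 3106 and 3230 bp in DTR and 2998, 3023 and 3154 bp in WT libraries. At both, the groups overlapped, and the log2 differences after centring were 0.03 and −0.05.

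**Figure D2:**
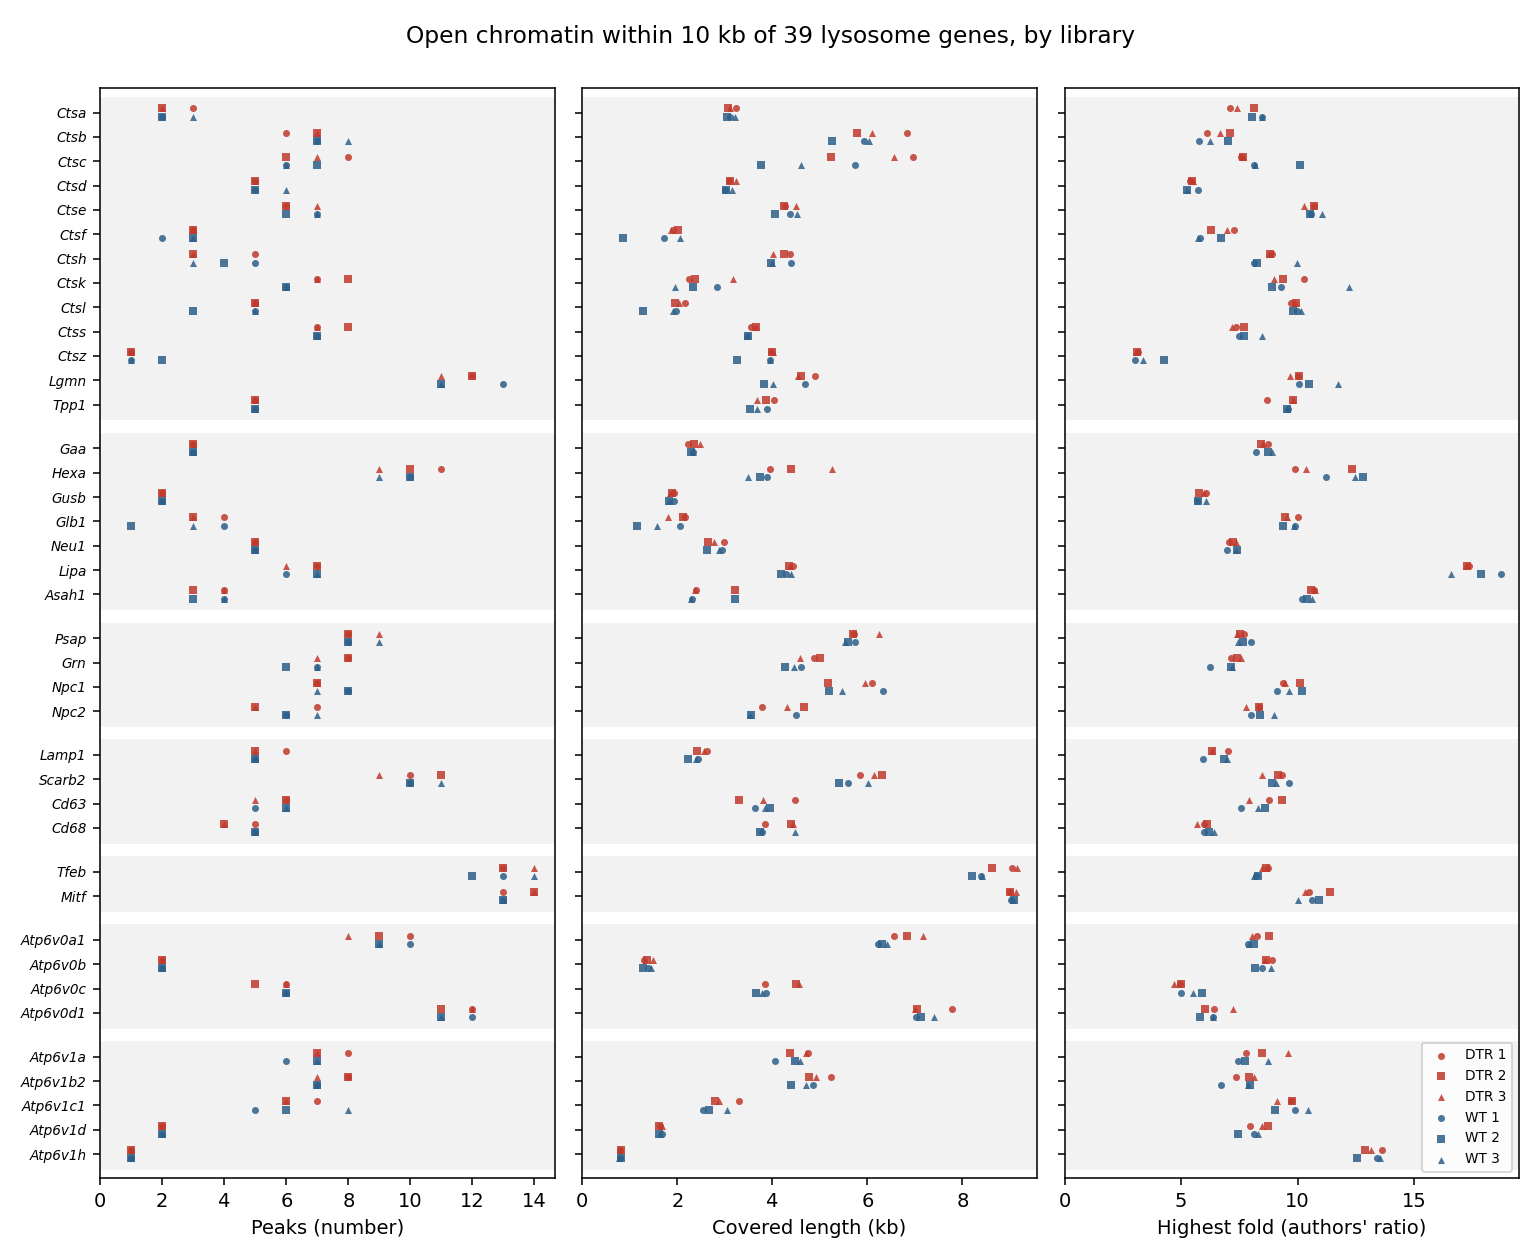
Number of peaks (left), covered length in kb (middle) and highest fold (right, the authors' ratio) in the window of each of the 39 genes, 1 point per library, with DTR libraries in red above WT libraries in blue and grey bands for the groups by role. Red and blue points of a gene mostly intermix, while the genes themselves span 1 to 14 peaks.

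Among the 7 glycosidases, lipases and the ceramidase, the number of peaks separated no member. Hexa, the alpha subunit of beta-hexosaminidase, which degrades gangliosides, had the most peaks, 11, 10 and 9 in DTR and 10, 10 and 9 in WT libraries. It covered 3938, 4393 and 5254 bp in DTR libraries, above 3878, 3739 and 3486 bp in WT libraries (log2 difference 0.19 after centring, adjusted p 0.661). Gusb, beta-glucuronidase, had the fewest, 2 in every library. Lipa had the highest fold of all 39 members, 17.4, 17.3 and 17.2 in DTR, against 18.7, 17.9 and 16.6 in WT libraries, where the WT libraries spread more widely and the groups overlapped. Asah1, acid ceramidase, had 10.7, 10.6 and 10.7 in DTR and 10.2, 10.4 and 10.6 in WT libraries.

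The cofactors and cholesterol transporters overlapped between groups in all 3 measures. Psap, whose product is cut into the saposins that help hydrolases reach lipids, had the most peaks, 8, 8 and 9 in DTR and 8, 8 and 9 in WT libraries. Npc2, a soluble cholesterol carrier, had the fewest, 7, 5 and 5 in DTR and 6, 6 and 7 in WT libraries. Grn, progranulin, covered 4864, 4995 and 4575 bp in DTR and 4602, 4274 and 4457 bp in WT libraries, with only the lowest DTR library inside the WT range. Npc1, the membrane protein that exports cholesterol from lysosomes, covered 6101, 5165 and 5942 bp in DTR and 6318, 5186 and 5461 bp in WT libraries, fully intermixed.

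The 4 lysosomal membrane proteins likewise overlapped in all 3 measures. Scarb2, the receptor that carries glucocerebrosidase to lysosomes, had the most peaks, 10, 11 and 9 in DTR and 10, 10 and 11 in WT libraries. Lamp1 covered 2627, 2409 and 2558 bp in DTR and 2443, 2224 and 2395 bp in WT libraries. Cd63, a tetraspanin of late endosomes, covered 4471, 3305 and 3810 bp in DTR and 3626, 3944 and 3842 bp in WT libraries, the DTR libraries holding both the highest and the lowest value. Cd68, a glycoprotein used as a marker of macrophages, had the fewest peaks, 5, 4 and 4 in DTR and 5 in each WT library, and covered 3847, 4397 and 4423 bp in DTR and 3771, 3741 and 4473 bp in WT libraries. Its window also holds 4 other protein-coding genes, as do those of Ctsa and Tpp1. Most other members' windows hold at least 1 as well, with 3 at Cd63, Atp6v0b and Atp6v0c. Peaks in such windows cannot be assigned to the member alone.

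The transcription factor genes Tfeb and Mitf had the most peaks of all members. Tfeb had 13, 13 and 14 peaks in DTR and 13, 12 and 14 in WT libraries, and Mitf 13, 14 and 14 in DTR and 13 in each WT library. Tfeb covered 9036, 8630 and 9146 bp in DTR libraries, above 8399, 8199 and 8402 bp in WT libraries, and after centring the log2 difference was 0.01 (adjusted p 0.929). Its highest fold was also above in every DTR library, 8.72, 8.66 and 8.47, against 8.20, 8.30 and 8.14 in WT libraries, which was so at 7.99% of genes. That difference was 0.07 on the log2 scale, with a 95% interval of −0.03 to 0.16 and an adjusted p of 0.662, so it did not pass the test. Mitf covered 9009, 9007 and 9123 bp in DTR and 9018, 9091 and 9057 bp in WT libraries, nearly the same in all 6, and its highest fold was 10.5, 11.4 and 10.3 in DTR and 10.6, 10.9 and 10.004 in WT libraries.

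In the V0 sector of the proton pump, Atp6v0d1 had the most peaks, 12, 11 and 12 in DTR and 12, 11 and 11 in WT libraries, and Atp6v0b the fewest, 2 in every library. Atp6v0a1, the membrane subunit through which protons pass beside the rotating ring, covered 6565, 6840 and 7177 bp in DTR libraries, above 6222, 6312 and 6419 bp in WT libraries, with a centred log2 difference of 0.03 (adjusted p 0.876). Atp6v0c, the proteolipid of the rotating ring, had a highest fold of 4.96, 5.01 and 4.70 in DTR and 4.99, 5.91 and 5.50 in WT libraries, with only the highest DTR library inside the WT range. Its log2 difference of −0.16 had an unadjusted p of 0.034 and an adjusted p of 0.499 in limma. Ctsa, singled out after its values were seen, was the other member with an unadjusted p under 0.05 for fold, with 7.08, 8.11 and 7.41 in DTR and 8.48, 8.02 and 8.46 in WT libraries (−0.15, adjusted p 0.521). These folds belong to a region in the flank upstream of Ctsa, in a window that holds 4 other protein-coding genes. At the starts of Ctsa the log2 difference in fold was −0.008 (adjusted p 0.965 in limma).

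In the V1 sector, Atp6v1b2, a nucleotide-binding B subunit, had the most peaks, 8, 8 and 7 in DTR and 7 in each WT library, and Atp6v1h, a regulatory subunit, the fewest, 1 in every library. That single peak was high and even, covering 797, 803 and 793 bp in DTR and 801, 808 and 775 bp in WT libraries at folds of 13.6, 12.9 and 13.2 in DTR and 13.4, 12.5 and 13.5 in WT libraries. Atp6v1a covered 4743, 4372 and 4714 bp in DTR and 4047, 4477 and 4587 bp in WT libraries, which overlapped, and its highest fold was 7.79, 8.46 and 9.60 in DTR and 7.43, 7.74 and 8.73 in WT libraries. For the 5 V1 genes, peaks summed to 26, 24 and 23 in DTR and 21, 23 and 25 in WT libraries.

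Over all 39 members, 0 passed an adjusted p of 0.05 for covered length, where 22 of 16572 genes were higher in DTR (0.133%) and 3 were lower (0.0181%). For highest fold, 0 members passed, with 1 gene of 16247 higher (0.00615%) and 1 lower (0.00615%). At an unadjusted p under 0.05 there were 0 members for covered length, against 4.65% of genes higher and 3.11% lower. For fold there were 2 members, Ctsa and Atp6v0c, both lower in DTR, against 3.67% of genes lower and 5.45% higher. The median log2 difference over members was −0.01 for covered length and −0.01 for highest fold, beside −0.02 and 0.00 over all genes tested, with 18 members above 0 and 21 below in each. The 95% intervals reached from −0.55 at Asah1 to 0.98 at Ctsf for covered length, and from −0.46 at Ctsz to 0.38 at Ctsf for fold, so differences of those sizes are not excluded at those genes.

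**Figure D3:**
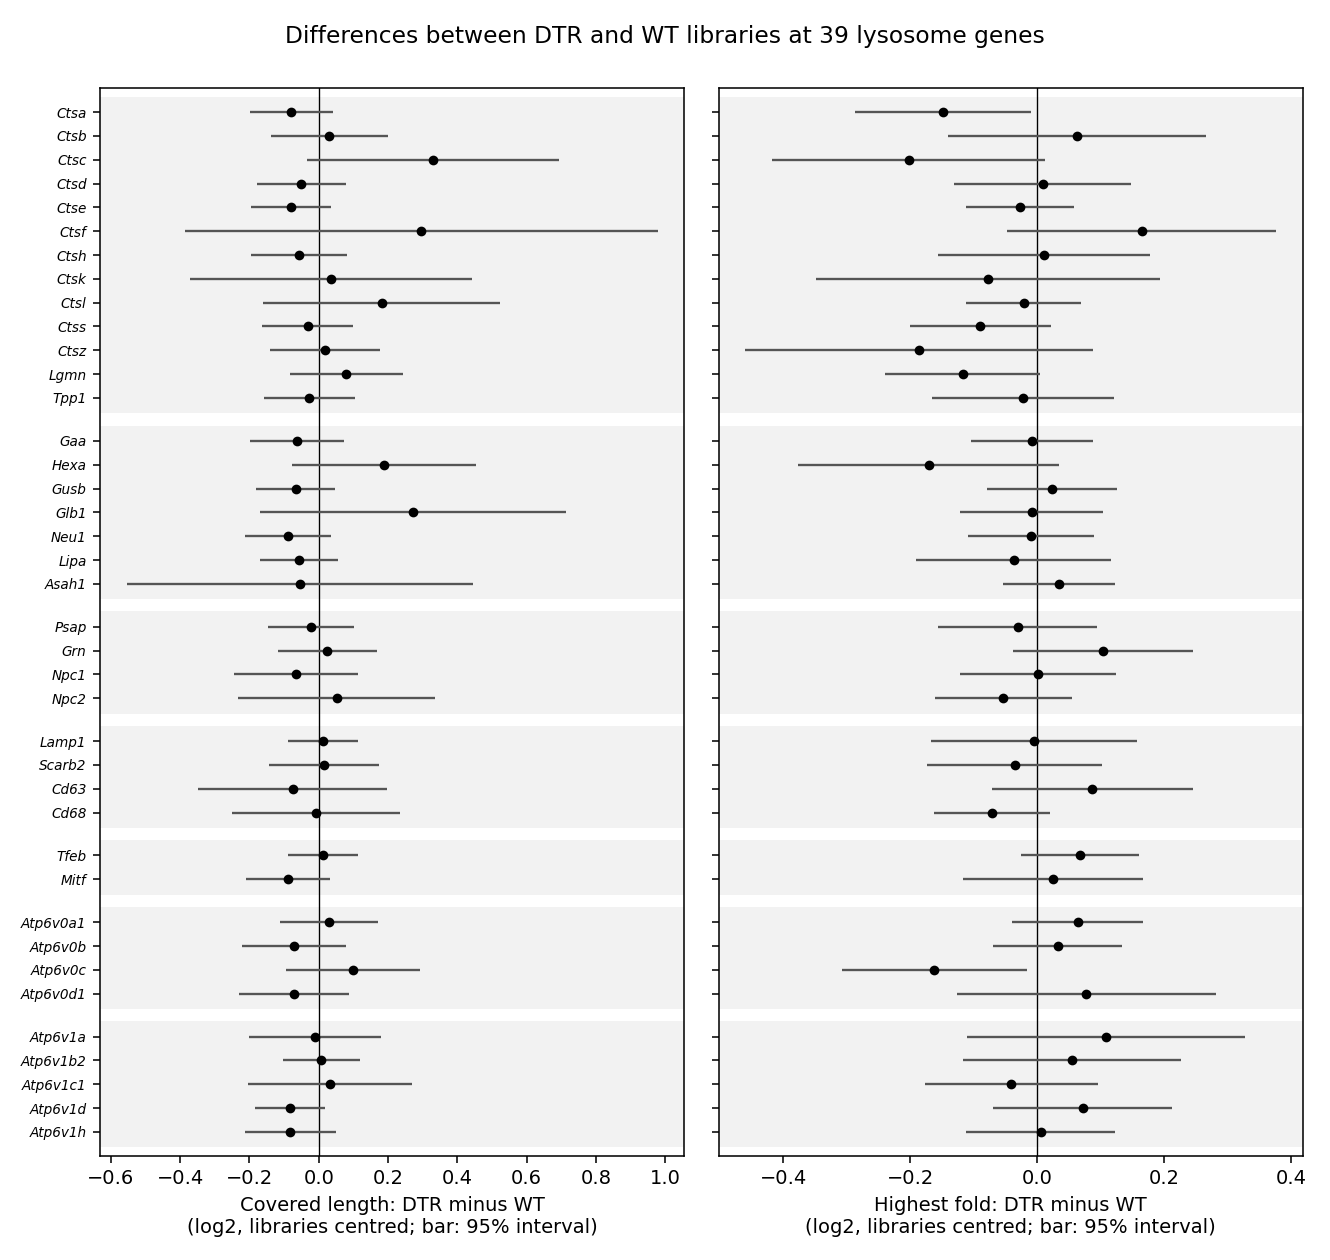
Log2 difference, DTR minus WT, of covered length (left) and highest fold (right) for each of the 39 genes (points) with 95% intervals from limma (bars), libraries centred on their median. Every bar for covered length crosses 0, as do all for fold except those of Ctsa and Atp6v0c, which lie below 0 and have adjusted p-values of 0.521 and 0.499.

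Summed over the 39 windows, DTR libraries had 248, 236 and 232 peaks, against 236, 229 and 241 in WT libraries, and the groups overlapped. Covered length summed to 162, 158 and 163 kb in DTR, above 155, 144 and 152 kb in every WT library. The group means differed by 10.4 kb or 6.88%, and the same sum over all genes by 6.73%. The sum over all genes was likewise higher in every DTR library, 51851, 50008 and 52089 kb in DTR and 49877, 46012 and 48356 kb in WT libraries. Summed covered length was also higher in every DTR library at the classical monocyte markers, 33.8 to 34.9 kb in DTR and 30.3 to 33.0 kb in WT libraries, and at the non-classical markers, 37.0 to 38.6 kb in DTR and 31.8 to 36.5 kb in WT libraries. At megakaryocyte and platelet markers the sums overlapped, 11.8 to 12.5 kb in DTR and 10.5 to 12.0 kb in WT libraries. They also overlapped at the macrophage, neutrophil, B cell, T and NK cell, and erythroid markers. The part of these list-wide differences in the members' sum was not tested beyond the centring above. The median width of a member peak was 549, 579.5 and 613.5 bp in DTR and 571, 510 and 548 bp in WT libraries, overlapping.

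Merging peaks over the 6 lists gave 257 regions in the member windows. Of these, 206 (80.2%) had a peak in all 6 libraries, against 74.1% of all 92712 regions. A single member region (0.389%) was present in every DTR library and in 0 WT libraries, against 0.821% of all regions. It lay in the body of Atp6v0d1 at chr8:105525769-105526138, 40111 bp downstream of the annotated start, with low folds of 2.29, 2.46 and 2.36 in DTR libraries. The reverse pattern was seen at 0 member regions, against 0.0992% of all. A further 4 regions, at Ctsc, Grn, Mitf and Atp6v1b2, had a peak in 2 DTR and 0 WT libraries (1.56%, against 1.89% of all regions), and 0 member regions had a peak in 2 WT and 0 DTR libraries (against 0.527%). More DTR than WT libraries had a peak at 26 member regions (10.1%), against 15.1% of all regions, and more WT than DTR libraries at 14 (5.45%), against 6.51%. The count of 1 became 2 without DTR library 1 or DTR library 2, 3 without DTR library 3 or WT library 1, and 0 with lists of equal length.

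**Figure D4:**
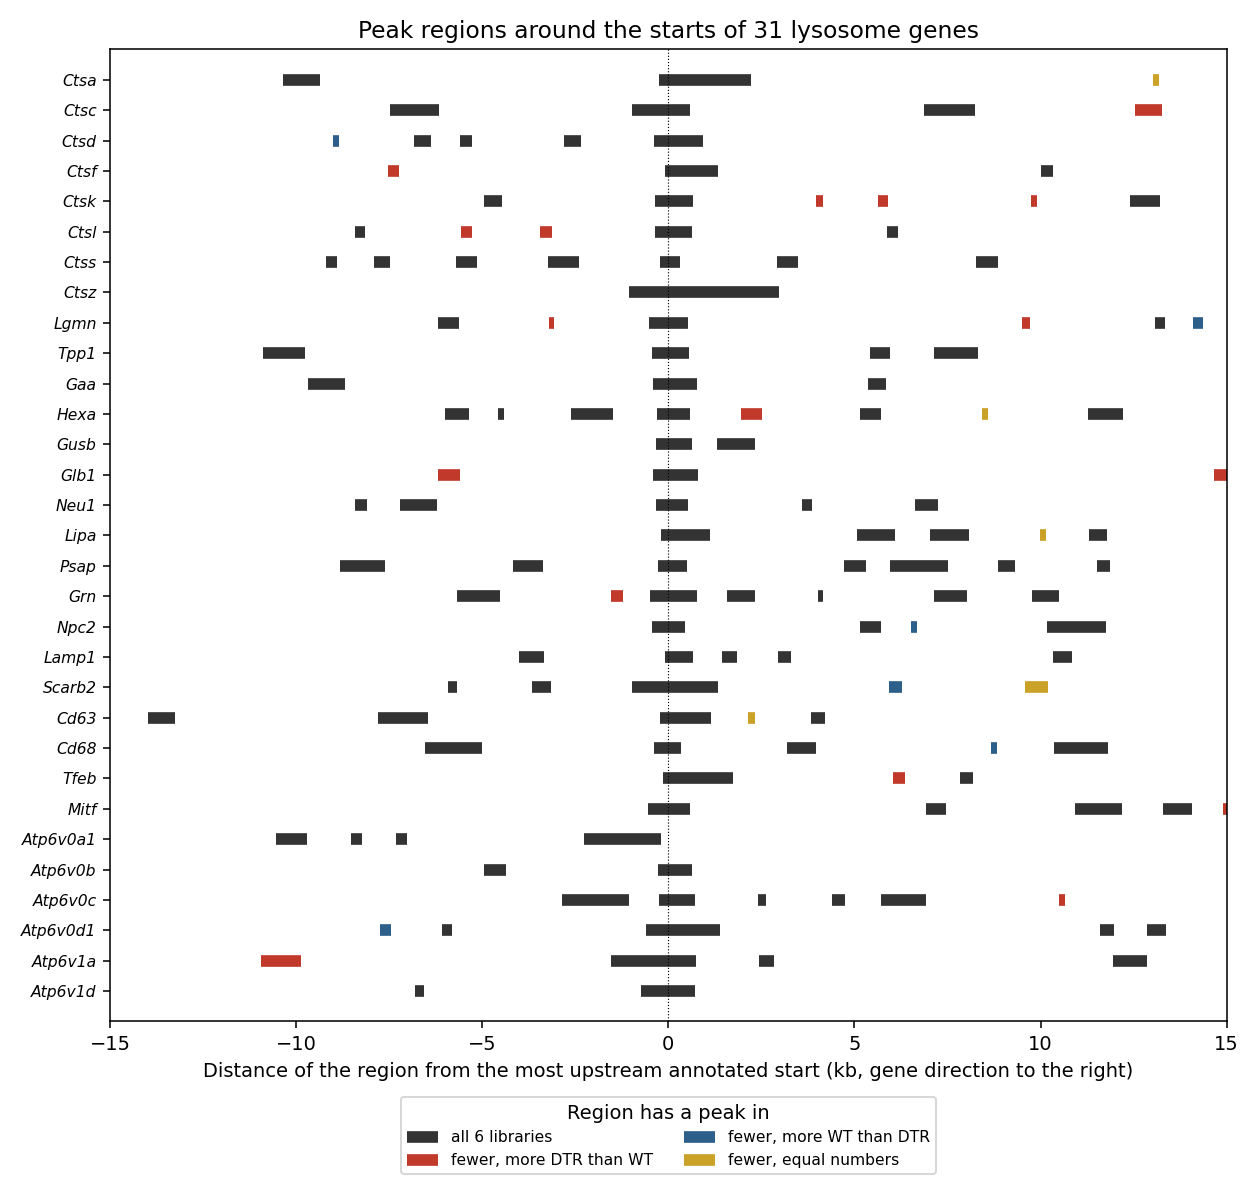
Merged regions within 15 kb of the most upstream annotated start of 31 member genes (rows), at their true width, by distance from the start in kb (x axis, gene direction to the right). Black regions have a peak in all 6 libraries, and one covers the start of every gene drawn or ends within 250 bp of it. A region merges overlapping peaks of the 6 lists. At Ctsk only the peaks of DTR library 3 and WT library 1 reached the 300 bases at the start. Coloured regions, peaks in fewer libraries, lie away from the starts.

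The fold of shared regions was then compared one by one. None of the 206 member regions passed an adjusted p of 0.05, and neither did any of the 68681 regions tested (0.00% in each direction). At an unadjusted p under 0.05, 6 member regions were higher in DTR, beside 5.61% of all regions, and 12 were lower, beside 5.31%. The lowest adjusted p, 0.179, fell on a region upstream of Hexa at chr9:59533543-59534189, picked after its values were seen, with folds of 3.72, 3.45 and 3.61 in DTR, below 4.62, 4.46 and 4.91 in WT libraries (log2 difference −0.41). Its peaks were 387, 645 and 609 bp wide in DTR and 236, 274 and 247 bp in WT libraries, wider in every DTR library. The highest difference in the other direction, likewise picked afterwards, was 0.38 (adjusted p 0.278) and lay in the flank downstream of Atp6v1a at chr16:44076429-44076635, with folds of 7.79, 7.90 and 7.53 in DTR, above 6.42, 6.06 and 5.09 in WT libraries.

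Small differences below 0 were common at the starts. Of 32 shared regions over member starts, 30 had a lower and 2 a higher mean log2 fold in DTR, with a median of −0.06 and none past the test. The region at Ctsk is among them, though only DTR library 3 and WT library 1 had a peak at the Ctsk start itself. Over all 9476 shared regions at a gene start the median was −0.04, with 73.0% below 0, and over all shared regions −0.02, with 56.8% below 0. Member regions in gene bodies had a median of −0.03 over 99 regions, and those in flanks −0.04 over 75. When starts were centred among starts, the member median was −0.01 and that of all starts 0.01.

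A wider list of lysosomal genes gave the same counts of calls. Of its 85 entries, from other hydrolases and protease inhibitors to delivery receptors and nutrient sensing, 84 were found by name in the gene table. The name Atp6v0a3 was not found. All 84 had peaks in all 6 libraries. None passed an adjusted p of 0.05 in limma for covered length or for highest fold, with 5 genes for covered length and 6 for fold at an unadjusted p under 0.05. Over all genes, the shares at an unadjusted p under 0.05 were 4.65% higher and 3.11% lower for covered length and 5.45% higher and 3.67% lower for fold. Covered length stood above in every DTR library at 22 of the 84, against 19.3% of all genes, and below at 1, against 0.85%. The median log2 difference was −0.02 for covered length and 0.00 for fold.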

How the data were processed

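ATAC-seq libraries of mouse blood monocytes, 3 DTR and 3 WT, were grouped by sample title. Digitonin-treated cells were cut with Tn5 and the libraries read from both ends, per the labels' protocols. The submitters' processing notes name fastp, MACS2, Bowtie and Bowtie2 (version 2.4.4). Not given in the sources used here are their parameters, any Tn5 shift and the genome build. Broad peaks were called by the authors library by library. Each deposited list gives, for every peak, a score, the −log10 of the p-value, the −log10 of the q-value, and a fold, the ratio of its signal to the background estimated by the caller. These values are the authors' own, and the lists give no counts. A fold grows with depth and with low background, and a broad peak's width with depth, which is why each library was centred.

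From these lists, number of peaks, covered length (bp under peaks) and highest fold were taken per gene window, with gene positions from a RefSeq table of GRCm38. The build was checked on 19 chromosomes: 38.5% to 64.2% of gene starts had a peak in all 6 libraries, against 1.77% to 6.47% after moving starts by 5000 or 20000 bp. Log2(covered bp + 100) for genes with a peak in at least 3 libraries, and log2 highest fold for genes, regions or starts with a peak in all 6, were centred on each library's median and tested with limma 3.58.1 (R 4.3.3) over all of them, with Benjamini-Hochberg adjustment and a threshold of 0.05. Centring moved the median difference of covered length over all genes by 0.09 on the log2 scale. The scale understates changes of small lengths. For numbers of peaks, an exact permutation test (two-sided) was used. Overlapping or touching peaks were merged into regions, and tables were made with Python 3.11.15. The fits were tested on simulated data with 200 seeded genes.

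The members and lists were chosen with earlier results of these data known. The text names members past the threshold, members whose groups do not overlap in a gene window (and, added later, at a start), those with the most and fewest peaks per role, 12 fixed by name, those with a region in 1 group alone, and others as stated. The comparison of starts was added after the files were seen. RefSeq starts matched 31 members; Asah1, Atp6v1b2, Atp6v1c1, Atp6v1h, Ctsb, Ctse, Ctsh and Npc1 had none in the table. Alternatives changed the window (0, 2 or 50 kb), pseudocount, filter, centring, fold summary, q, list length, joining of peaks, replicate block and libraries.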

Additional observations from a re-analysis of the deposited data

How the results depend on the processing

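Members past an adjusted p of 0.05 numbered 0 in all 53 alternative fits, and the lowest adjusted p of a member was 0.244 for covered length and 0.260 for highest fold. Of 1526 alternative values over 21 settings, 1311 stayed within the limits used here and 215 moved. For a member's difference, staying meant the same sign and no change of call. A call turned round could be scored only for a called member, so none was possible here. Of 1287 values of named members, 171 had the other sign, none of them called. Over all genes, 25 calls for covered length became 1 when a peak was required in all 6 libraries, 39 with a pseudocount of 1 bp, 3 with 1000 bp, 42 with a q of at most 1e-05 and 2 with the replicate block. Leaving out 1 library gave 2 to 40 calls (5 without DTR 1, 2 without DTR 2, 3 without DTR 3, 40 without WT 3). The 2 calls for highest fold became 0 with no extension, a 2 kb extension, the midpoint rule, no centring, a width-weighted mean fold or the replicate block, 9 with 50 kb, and 0 whichever library was left out. Calls at starts, 0, ranged from 0 to 9 with a library left out (9 without WT 1). Same-numbered DTR and WT libraries correlated at −0.04, 0.10 and −0.01 in covered length after group means were removed and at −0.01, 0.08 and −0.05 in fold, so the numbers were not taken to pair them. The summed covered length differed by 5.75 kb without extension and 20.2 kb with 50 kb. The summed number of peaks, 3.33 higher in DTR, was −3.33 with lists of equal length and −1.33 without DTR 1, with a range of −1.33 to 6.67 over the libraries left out (highest without DTR 3). Members with more peaks in every DTR library numbered 2 with 50 kb (Ctsk and Ctss), 0 with the stricter q or equal length, and 1 to 3 with a library left out. Those with fewer numbered 0 to 2 (Npc2 and Cd68 without DTR 1, Npc1 without WT 3). Regions in DTR libraries alone numbered 0 with the stricter q or equal length, 5 where 2 libraries sufficed, and 1 to 3 with a library left out. Regions in WT libraries alone numbered 1 with 50 kb (Atp6v0d1), the stricter q (Lgmn) or equal length (Ctsc). In the full lists that Lgmn region has peaks in 2 DTR libraries and that Ctsc region in all 3. Unknown depth limits every absence of a peak, and 3 libraries against 3 limit the exact test to a p of 0.1.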
